A study of Homo sapiens with 16 samples.

Results

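This report describes polysomal against cytoplasmic RNA in control H69 cells: the 4 of the series' 16 libraries that carry the label H69, the control shRNA shNTC and either fraction, 2 libraries from polysomes and 2 from cytoplasm. H69 is an established human small cell lung cancer (SCLC) line that grows with neuroendocrine features. The cells of all 4 libraries carry shNTC, have the genotype label WT and the treatment label normal, and grew in RPMI medium with fetal bovine serum. Cytoplasmic RNA came from a hypotonic lysate containing cycloheximide, deoxycholate and Triton X-100, and polysomal RNA from sucrose fractions after polysome profiling. Which fractions were taken is not given in the sources used here. A further 2 pairs of groups serve for comparison, each with 2 polysomal and 2 cytoplasmic libraries: H69 made stable for an shRNA against EIF6 by lentivirus (sheIF6, labelled eIF6 knockdown), and H69M shNTC, a second line labelled as SCLC cells with the genotype WT. The labels do not state how shNTC was introduced, nor whether libraries numbered 1 and 2 are separate cultures. A p-value therefore reflects no more than how far libraries lie apart. The spread it uses was estimated over all 16 libraries, not over these 4 alone.

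Polysomes are mRNAs carrying several ribosomes, and they sediment deep in a sucrose gradient. An mRNA with a short open reading frame has room for few ribosomes, an RNA kept in the nucleus or in mitochondria meets no cytosolic ribosomes, and a noncoding RNA may carry none or a few. A polysomal level divided by a cytoplasmic level is therefore a relative measure: each library is scaled to its own total, so the fraction of a gene's molecules that sat on polysomes was not measured.

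The 4 libraries held between 41412177 and 45564335 counts, and a count was seen for 27003 and 27709 genes in the cytoplasmic and for 22585 and 24331 genes in the polysomal libraries. Replicates differed by 48.8 (cytoplasmic) and 113 (polysomal) times the variance expected from counting alone, so the spread between libraries, not the depth, limited precision. The 10 neuroendocrine markers examined had counts in all 4 libraries, with summed levels of 2200 and 1860 counts per 1000000 (CPM) in cytoplasmic and 4075 and 3364 CPM in polysomal RNA. The 12 markers of the non-neuroendocrine state of H69M summed to 690 and 541 CPM in cytoplasmic and 1510 and 1406 CPM in polysomal RNA, with COL5A3 at 0 in all 4 libraries. Most of that sum came from TAGLN2, CD44 and S100A6. VIM, the mesenchymal filament gene, was at 17.9 CPM in cytoplasmic replicate 1 against 0.12, 0 and 1.66 CPM in cytoplasmic replicate 2 and polysomal replicates 1 and 2, and CAV1 was likewise at 5.99 CPM against 0.16, 0 and 0.52 CPM. Of the 23100 genes tested 2955 were over 5 times higher in H69M shNTC cytoplasmic RNA. They made up 48 (3.14%) of the genes called higher on polysomes and 60 (5%) of those called lower. A fit without genes over 5 times higher in H69M, picked there by CPM on total counts over all names, gave 1693 and 1267 calls. Of 5 fibroblast markers COL1A2 was high (455 and 174 CPM cytoplasmic, 508 and 147 CPM polysomal), DCN was at 0 and the others were below 3 CPM, and 5 immune and erythroid markers summed to less than 2 CPM. In bulk RNA fewer cells of a type and less RNA per cell cannot be told apart.

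In all, 23100 genes were tested. Of these 1531 (6.63%) were higher and 1201 (5.2%) lower in polysomal than in cytoplasmic RNA at an adjusted p under 0.05, together 11.8%. Both polysomal libraries lay above both cytoplasmic ones for 5322 genes (23%) and below them for 7452 (32.3%). The median log2 change was -0.143. Protein-coding genes made up most of the higher calls: 1475 of 15554 were higher and 871 lower. Named long noncoding RNAs were rarely called higher. Of 324 sense or intergenic ones 2 were higher (0.617%) and 24 lower (7.41%, median -0.76). Of 225 antisense ones 0 were higher and 16 lower (7.11%, median -0.80). These lower shares are not far above the 5.2% of all genes. Pseudogenes (median -0.65) and clone names without a class (median -0.75) had similar medians. With the replicate number as a block within each line 2279 genes were higher (9.87%) and 2081 lower (9.01%). The split depends on scaling: 56% of the calls were rises with TMM, and 26.2% (843 higher, 2371 lower) when libraries were scaled by total counts, which lowered the median of all genes by 0.343. No call was left in an edgeR test against a log2 change of 1, where 655 genes were higher and 1402 lower at an unadjusted p under 0.05. Leaving out 1 library, which leaves a group with a single library assumed to vary like the others, gave 213 higher and 220 lower without cytoplasmic replicate 1, 261 and 359 without cytoplasmic replicate 2, 518 and 276 without polysomal replicate 1, and 947 and 583 without polysomal replicate 2. Counts under these 4 omissions are given below in that order.

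**Figure D1:**
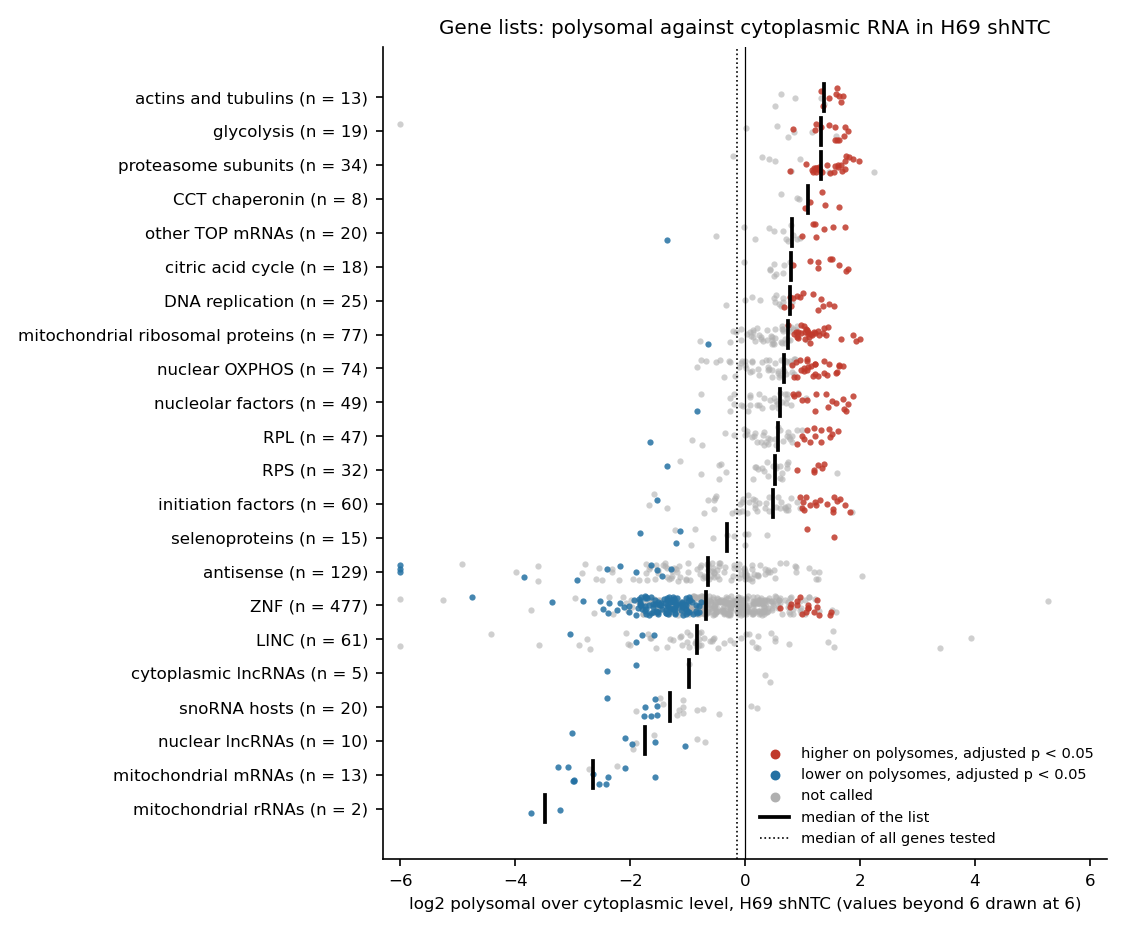
Log2 polysomal over cytoplasmic level of each tested gene (points) in 22 gene lists, ordered by the list median (black bars), in H69 shNTC. Actins and tubulins, glycolysis and proteasome mRNAs sit highest, with medians of 1.38, 1.33 and 1.32, and mitochondrially encoded RNAs lowest, with medians of -2.64 (mRNAs) and -3.48 (rRNAs), against -0.143 for all genes.

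Mitochondrially encoded RNAs had the lowest medians of the lists examined. These transcripts are made and translated inside mitochondria by mitochondrial ribosomes. All 13 mitochondrial mRNAs and both mitochondrial rRNAs were lower in both polysomal libraries than in either cytoplasmic one, and 11 of the 13 mRNAs and both rRNAs were called lower. The 13 mRNAs made up 4.66% and 4.27% of the cytoplasmic counts and 0.345% and 0.806% of the polysomal ones. MT-RNR2, the large mitochondrial rRNA (mitochondrial chromosome, 1671 to 3229), was at 4625 and 4391 CPM in cytoplasmic and at 281 and 400 CPM in polysomal RNA (log2 change -3.73, SE 0.61, adjusted p = 0.00415), and its call held under each of the 4 omissions. MT-CO1, a cytochrome oxidase subunit, was at 14124 and 11244 CPM against 1355 and 2716 CPM (-2.64, SE 0.71, adjusted p = 0.0322). The groups do not overlap for either gene, and polysomal replicate 1 is the lowest library for both. MT-ND4 (-3.25), MT-ATP8 (-3.08), MT-ND2 (-3.0) and MT-ATP6 (-2.98), subunits of complex I and of ATP synthase, followed, and MT-ND5 changed least (1554 and 1591 CPM against 508 and 551 CPM, -1.57). MT-ND4 with MT-ND4L and MT-ATP6 with MT-ATP8 overlap, so reads may be split between them. Under the 4 omissions 2, 3, 0 and 8 of the 13 mRNAs were called lower, with medians from -3.30 to -2.05, and with the replicate block all 13 were.

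Both signal recognition particle RNAs, RN7SL1 and RN7SL2, were called lower on polysomes. This particle brings ribosomes making secreted proteins to the endoplasmic reticulum. RN7SL2 was at 68.4 and 90.2 CPM in cytoplasmic and at 1.53 and 4.65 CPM in polysomal RNA (log2 change -4.68, SE 0.85, adjusted p = 0.00656), and RN7SL1 at 32.4 and 42.3 CPM against 1.29 and 2.85 CPM (-4.17, SE 0.79, adjusted p = 0.0069). Both calls were lost without polysomal replicate 1 (-5.69 to -4.09 and -4.85 to -3.71 over the 4 omissions). The copies are nearly identical and RN7SL4P and RN7SL5P, called lower as well, are related pseudogenes, so the division of reads among them is uncertain. Among the other 4 small structured RNAs tested none was called. Of 446 box C/D, H/ACA and Cajal body small RNAs 48 passed the count filter, with a median of -1.39. None of the 48 was called by edgeR in the fit of all 16 libraries, with or without the replicate block. The H69 libraries alone with the block gave 1 lower of 38. At an unadjusted p under 0.05, 7 were lower, about the same share as the 3353 of all 23100 genes. DESeq2 called 1 and limma-voom 2 of the 48 lower.

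Of 10 long noncoding RNAs described as nuclear 5 were called lower on polysomes, or 8 with the replicate block, and all 10 had a negative change (median -1.74). MALAT1, a nuclear speckle RNA, was at 271 and 364 CPM against 22.3 and 56.7 CPM (log2 change -3.01, SE 0.58, adjusted p = 0.00776). Its call was lost without cytoplasmic replicate 2 and without polysomal replicate 1 (-3.83 to -2.48 over the omissions). NEAT1, the scaffold of paraspeckles, differed more between numbers than between fractions, at 55.2 and 343 CPM in cytoplasmic and 8.94 and 94.8 CPM in polysomal RNA, and was called only with the block (-1.94, adjusted p = 0.37; blocked 0.0174). KCNQ1OT1 (-2.09), FTX (-1.97) and SNHG14 (-1.57) were called lower. TUG1, outside the rule for named genes, was at -1.05 and also called. None of the 10 was left in the fit without genes whose exons overlap another gene. The strand setting of the counts is not given, so reads of overlapping genes may be mixed. Under the 4 omissions 3, 2, 1 and 6 of the 10 were called.

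Of the 5 cytoplasmic long noncoding RNAs 2 were called lower, or 3 with the replicate block and 3 by DESeq2. A negative change was seen for 3 of the 5 (median -0.98). NORAD, which binds PUMILIO proteins, was at 357 and 356 CPM against 80.4 and 112 CPM (-1.89, SE 0.33, adjusted p = 0.00519; lost without polysomal replicate 1). OIP5-AS1 was at 217 and 170 CPM against 31.1 and 41.7 CPM (-2.41, SE 0.31, adjusted p = 0.00327), a call that held under each omission. The polysomal libraries of both genes lie well below the cytoplasmic ones and close to each other. H19 (0.35) and TINCR (0.44) were not called. Among other noncoding genes, the microRNA host MIR17HG fell from 9.10 and 10.5 CPM to 0.789 and 2.05 CPM (-2.78, adjusted p = 0.00926), LINC00461 was at -1.58 and LINC00340 at -1.79. The calls of MIR17HG and LINC00461 were lost under 3 of the 4 omissions, all but that of polysomal replicate 2, and that of LINC00340 without cytoplasmic replicate 1 or polysomal replicate 1.

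Of 20 transcripts that host small nucleolar RNAs in their introns 7 were called lower and none higher (median -1.31), and 14 were lower with the replicate block. Only 1 of the 20 was left in the fit without genes whose exons overlap another gene, at -1.79 and not called. Counts of the other hosts may therefore include reads of overlapping genes. Several of them start like ribosomal protein mRNAs. LRRC75A-AS1 was at 139 and 154 CPM against 38.2 and 56.5 CPM (log2 change -1.63, SE 0.27, adjusted p = 0.00415) and SNHG14, also in the nuclear list, at 149 and 128 CPM against 43.8 and 49.3 CPM (-1.57, SE 0.27, adjusted p = 0.00494). Both calls held under each omission. SNHG4 (-2.41), ZFAS1 (-1.76) and SNHG6 (-1.73) were lower too, and their calls were lost under 4, 3 and 3 of the omissions. GAS5 was at 58.3 and 84.8 CPM against 19.2 and 43.7 CPM and was called with the block alone (-1.19, adjusted p = 0.161; blocked 0.0307). Under the omissions 2, 3, 2 and 8 hosts were called.

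Messages for ribosomal proteins begin with a terminal oligopyrimidine (TOP) run, a C followed by pyrimidines at the cap, through which growth signals control their translation. The windows below are shown because genes with such a start were found at both ends of the range. They hold 10 bases before and 15 after the annotated start, read from the RefSeq promoter table (GRCh38.p14) 5′ to 3′, with the uninterrupted pyrimidines from the start in capitals. The first 3 genes were called higher on polysomes, the next was not called, and the last 4 were called lower.
RPL10 (second of 3 annotated starts, chrX:154398367-154398391, plus strand): ggaggagcgcCTCTTTCCCTTCggt
FAU (chr11:65122120-65122144, minus strand): tcgcttcttcCTCTTTCTCgactcc
RACK1 (chr5:181243892-181243916, minus strand): gcttttctctCTCTCTTTCactgca
EEF1A1 (chr6:73521018-73521042, minus strand): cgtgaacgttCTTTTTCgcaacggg
RPL41 (chr12:56116623-56116647, plus strand): cttcgcctttCTCTCggccttagcg
RPS12 (chr6:132814559-132814583, plus strand): cggatgaggcCTCTTTCCCTgccgc
ZFAS1 (chr20:49278632-49278656, plus strand): gccattcgttCTTTCgcgtctgcgg
SNHG4 (chr5:139274091-139274115, plus strand): ctcccggctgCCCTTTCCCCTCCgg

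A start with C and at least 5 pyrimidines in a row on the transcribed strand was annotated for 47 of the 63 ribosomal protein genes with an entry (74.6%), for 5 of 17 snoRNA hosts (29.4%) and for 5.14% of all 27305 genes in the table. Ribosomal protein mRNAs with such a start had a median log2 change of 0.41 and those without an annotated one 0.87. Among all protein-coding genes tested, those with the run had a median of 0.09 and those without it 0.01. The letters at the annotated start thus occur in genes that were higher, lower and not called.

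Among ribosomal protein mRNAs the log2 change went with the length of the reading frame. Of 47 large-subunit mRNAs 13 were called higher and 1 lower (median 0.58), and of 32 small-subunit mRNAs 6 were higher and 1 lower (median 0.52). RPL19 was at 482 and 478 CPM against 1218 and 1528 CPM (log2 change 1.52, SE 0.30, adjusted p = 0.00715) and RPL10 at 801 and 734 CPM against 2032 and 2262 CPM (1.48, SE 0.31, adjusted p = 0.00894). Both lost the call without either cytoplasmic library. RPL8 was the highest of those called (1.61, adjusted p = 0.00454; lost without cytoplasmic replicate 2), and FAU (1.37) and RPS9 (1.34) were high in the small subunit. RPS12 went the other way, at 376 and 352 CPM against 114 and 171 CPM (-1.35, SE 0.38, adjusted p = 0.0365; no omission kept the call). RPS18 varied without order, at 38.7, 2.22, 0.158 and 124 CPM, and RPS9 was low for a ribosomal protein gene, so counts of these 2 genes are uncertain, as are those of any member with processed pseudogenes. Under the omissions 1, 0, 6 and 7 large-subunit and 0, 0, 2 and 0 small-subunit mRNAs were called higher. The number 1 libraries gave a median of 0.23 over all 79 mRNAs and the number 2 libraries 0.78.

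RPL41, which encodes the shortest of these proteins, was the lowest of the 79. It was at 548 and 561 CPM in cytoplasmic and at 98.1 and 257 CPM in polysomal RNA (log2 change -1.65, SE 0.49, adjusted p = 0.0456). Of the 4 omissions only that of polysomal replicate 2 kept the call (-2.50 to -1.11), which was also lost in fits of the H69 libraries alone, of the 4 H69 shNTC libraries alone and with no count filter. Its coding sequence is shown because its 78 bases, with the start and stop codons in capitals, are shorter than the stretch of mRNA that a few ribosomes cover (GENCODE v29, GRCh38, spliced from chr12:56116788-56117524, plus strand).
RPL41: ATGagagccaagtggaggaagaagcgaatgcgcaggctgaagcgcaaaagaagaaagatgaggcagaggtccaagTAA

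Across the 79 ribosomal protein mRNAs the log2 change was larger with longer coding sequence (Spearman's rho 0.68, across genes, which are not independent replicates and share the libraries). The 25 mRNAs with fewer than 400 coding bases, a limit set after the values were seen, had a median of 0.03 and 11 of them lay below 0, while the 54 longer ones had a median of 0.74 and 2 lay below 0. RPL39 (156 bases, -0.92) and RPS20 (360 bases, -0.77) were among the short ones below 0 without a call. RPS29 (171 bases, -1.13) passed with the block (adjusted p = 0.0956; blocked 0.0467). The 2 longest reading frames, RPL4 (1284 bases, 1.14) and RPL3 (1212 bases, 1.46), were both called higher. RPS2 (882 bases, -0.42) and RPLP0 (954 bases, -0.35) were long and below 0 without a call. The same correlation was 0.70 in the number 1 libraries and 0.65 in the number 2 libraries. In other cells it was 0.66 (H69 sheIF6) and 0.78 (H69M shNTC), although in H69M all 25 short mRNAs lay below 0 and the median of the 79 was -0.30.

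**Figure D2:**
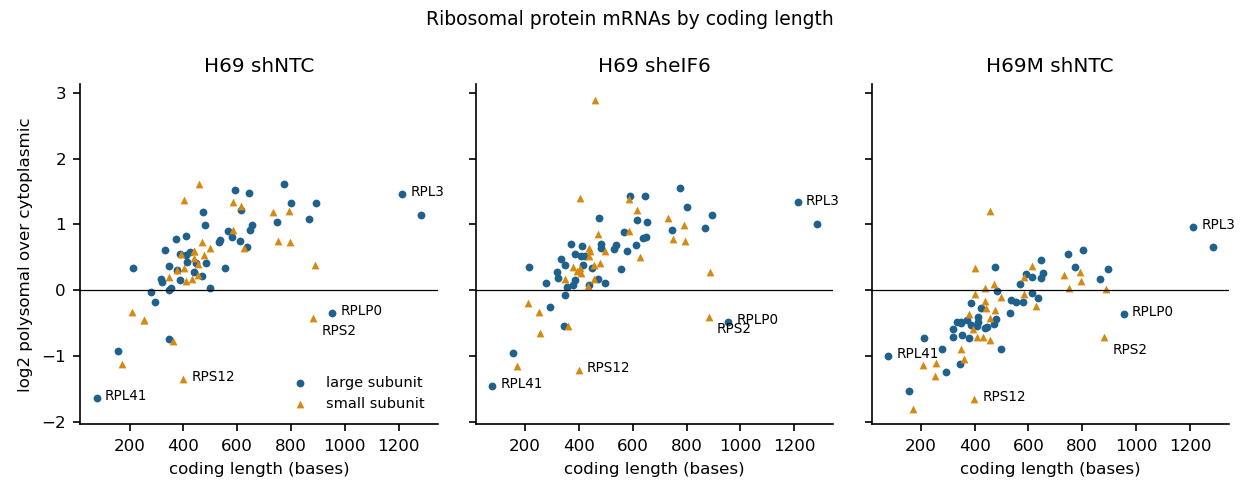
Log2 polysomal over cytoplasmic level of the 79 ribosomal protein mRNAs against coding length in bases, for H69 shNTC, H69 sheIF6 and H69M shNTC. In each panel short mRNAs lie lower than long ones. RPS12, RPS2 and RPLP0 lie below most mRNAs of their length, and the whole set lies lower in H69M (median -0.30) than in H69 shNTC (median 0.54).

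Of 20 further TOP mRNAs, many for translation factors, 7 were called higher and 1, PABPC1, lower (median 0.82), and under the omissions 1, 1, 3 and 4 were higher. RACK1, a scaffold on the small subunit, was at 801 and 755 CPM against 2410 and 2087 CPM (log2 change 1.53, SE 0.33, adjusted p = 0.0114), and its call was lost under 3 omissions, all but that of polysomal replicate 2. The elongation factors EEF1A1 (4976 and 4644 CPM against 9512 and 7642 CPM, 0.83, adjusted p = 0.0715) and EEF2 (0.71, adjusted p = 0.0599; blocked 0.0494) had both polysomal libraries above both cytoplasmic ones, without a call in the unblocked fit of the 16 libraries. TPT1 was at 316 and 324 CPM against 281 and 351 CPM, with overlapping groups (-0.02, adjusted p = 1). PABPC1, the cytoplasmic poly(A)-binding protein, which binds an adenosine-rich stretch of its own leader, was at 1165 and 816 CPM against 403 and 369 CPM (-1.36, SE 0.22, adjusted p = 0.00385; lost without cytoplasmic replicate 1). It was lower in the other cells as well, at -1.24 in H69 sheIF6 and -1.07 in H69M.

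Among initiation factors 17 of 60 were called higher and 1 lower (median 0.49). The higher ones included subunits of eIF3, which recruits the small subunit to mRNA. EIF3G was at 128 and 133 CPM against 428 and 443 CPM (log2 change 1.74, SE 0.25, adjusted p = 0.00349), and its call held under every omission. EIF3K (1.66) and the exon junction helicase EIF4A3 (1.59) followed. EIF4EBP2, an inhibitor of the cap-binding protein, was the member called lower, at 224 and 171 CPM against 61.5 and 75 CPM (-1.53, adjusted p = 0.0112; lost without replicate 1 of either fraction). Under the omissions 3, 2, 4 and 16 members were called higher.

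EIF6, which keeps the large ribosomal subunit apart from the small one until it is mature, was itself high on polysomes. It was at 116 and 112 CPM in cytoplasmic and 424 and 389 CPM in polysomal RNA, 3.56-fold higher (log2 change 1.83, SE 0.30, adjusted p = 0.00415), and the call held under every omission. Of the 12 genes of eIF6 and late large-subunit maturation 5 were called higher and none lower (median 0.59). The block, DESeq2 and the filter of at least 50 counts each called 5 higher and 1 lower. Scaling by total counts gave 2 higher and 1 lower. ZNF622, which loads onto the nascent subunit, was at 45.5 and 41.9 CPM against 144 and 101 CPM (1.49, adjusted p = 0.0207), and MRTO4 at 52.7 and 48.6 CPM against 124 and 139 CPM (1.38, adjusted p = 0.00457). SBDS, which with EFL1 releases eIF6, was at 67.7 and 73.9 CPM against 129 and 115 CPM (0.78, adjusted p = 0.0351). ZNF622 kept the call only without polysomal replicate 2, MRTO4 lost it without cytoplasmic replicate 2 and SBDS under every omission, and 2, 1, 2 and 3 of the 12 were called under the omissions.

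Of 49 nucleolar assembly factors 16 were called higher and 1 lower (median 0.61). FBL, the methyltransferase of box C/D snoRNPs, was at 267 and 215 CPM against 949 and 829 CPM (log2 change 1.88, SE 0.29, adjusted p = 0.0036). RRP9 (1.76) and RRP1 (1.8) were close to it, and the 3 calls held under every omission. UTP20, a very long mRNA, was the member called lower (-0.83, adjusted p = 0.0333; lost under every omission). The omissions gave 5, 5, 6 and 13 higher.

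**Figure D3:**
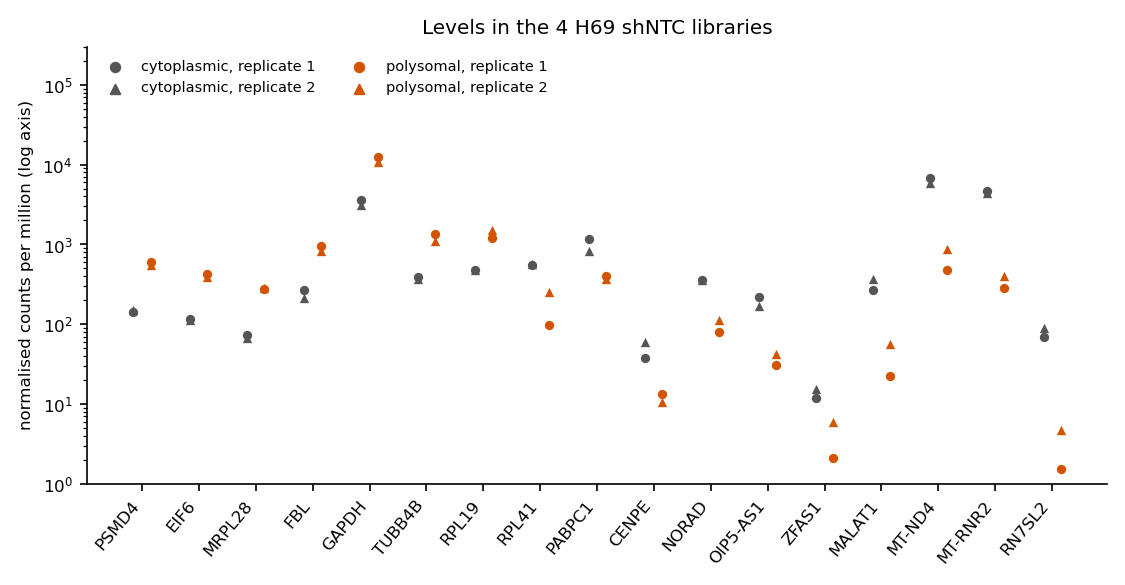
Normalised counts (CPM, log axis) of 17 genes in the 2 cytoplasmic (grey) and 2 polysomal (orange) H69 shNTC libraries; circles are replicate 1 and triangles replicate 2. From PSMD4 to RPL19 both polysomal libraries lie above both cytoplasmic ones, and from RPL41 to RN7SL2 both lie below; for RPL41, ZFAS1, MALAT1 and RN7SL2 the polysomal replicates are also far apart.

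Of the mRNAs for 34 subunits of the proteasome, the protein-degrading complex, 26 were called higher and none lower (median 1.32), and 33 had both polysomal libraries above both cytoplasmic ones. PSMD4, a ubiquitin receptor of the regulatory particle, was at 144 and 149 CPM against 606 and 549 CPM (log2 change 1.98, SE 0.30, adjusted p = 0.0036). PSMC3 (219 and 221 CPM against 855 and 760 CPM, 1.87), PSMB1 (1.8) and PSMA5 (1.76) encode ring subunits, and these 4 calls held under every omission. Under the omissions 9, 9, 13 and 24 subunits were called. The ubiquitin gene UBB was also higher, at 504 and 592 CPM against 2108 and 2581 CPM (2.10, SE 0.38, adjusted p = 0.00562; lost without cytoplasmic replicate 1).

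Glycolysis and cytoskeleton mRNAs are among the most abundant of the cell. Of 19 glycolysis genes 12 were called higher and none lower (median 1.33). Together these genes took 1.42% and 1.21% of the cytoplasmic counts and 3.43% and 2.80% of the polysomal ones. GAPDH was at 3648 and 3106 CPM against 12598 and 10795 CPM, 3.46-fold higher (log2 change 1.79, SE 0.36, adjusted p = 0.00794). ALDOA (1252 and 961 CPM against 4266 and 3123 CPM, 1.74), ENO1 (1.73) and PGK1 (1.63) followed. These 4 calls were lost under 3 omissions, all but that of polysomal replicate 2, and the omissions gave 2, 0, 3 and 13 of the 19. Of 13 actins and tubulins 8 were higher (median 1.38; 0, 0, 1 and 7 under the omissions), with TUBB4B at 395 and 374 CPM against 1340 and 1112 CPM (1.67, adjusted p = 0.00986). ACTB was at 2718 and 2197 CPM against 7202 and 5162 CPM and was called with the block but not in the unblocked fit of the 16 libraries (1.33, adjusted p = 0.0652; blocked 0.0189). Actins and tubulins share sequence with close copies, so single genes are less certain than the group. The CCT chaperonin, which folds both, had 5 of 8 subunits higher (median 1.09; 0, 0, 1 and 4 under the omissions).

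Mitochondrial proteins encoded in the nucleus are made on cytosolic ribosomes. Of 74 nuclear oxidative phosphorylation mRNAs 27 were higher and none lower (median 0.68). Scaling by total counts gave 14 higher and 2 lower (median 0.34). UQCRC1 of complex III was at 164 and 147 CPM against 523 and 488 CPM (log2 change 1.70, SE 0.28, adjusted p = 0.00415), and its call held under every omission. ATP5B of ATP synthase (1.63) lost its call without either cytoplasmic library. Of 18 citric acid cycle mRNAs 9 were higher (median 0.81), led by SUCLG1 (1.8), IDH3G (1.77) and IDH3B (1.64). Of 77 mitochondrial ribosomal protein mRNAs 31 were higher and 1 lower (median 0.75), and 15 were higher and 1 lower with scaling by total counts. MRPL28 was at 72.6 and 67.0 CPM against 273 and 284 CPM (2.00, SE 0.24, adjusted p = 0.00327) and MRPL24 at 25.5 and 30.7 CPM against 106 and 109 CPM (1.93, SE 0.22, adjusted p = 0.00327), and both calls held. MRPL42 was the one called lower (138 and 129 CPM against 88.2 and 82.8 CPM, -0.64, adjusted p = 0.0358; lost under every omission). The omissions gave 5, 5, 14 and 14 calls for oxidative phosphorylation, 1, 1, 5 and 7 for the cycle and 6, 6, 14 and 16 for mitochondrial ribosomal proteins.

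Of 25 DNA replication mRNAs 13 were called higher and none lower (median 0.79; 0, 0, 4 and 8 under the omissions), among them the clamp PCNA (1.47), the flap nuclease FEN1 (1.55), the helicase subunit MCM7 (1.31) and the licensing factor CDT1 (1.36). Of 26 mitosis mRNAs 3 were called higher (11.5%, against 6.63% of all genes) and 2 lower (7.69%, against 5.2%). The kinase AURKB (63.2 and 48.7 CPM against 197 and 142 CPM, log2 change 1.60, adjusted p = 0.0104) and the cyclin CCNB2 (1.26) were called higher, as was the conjugating enzyme UBE2C (1.14), while the very long kinetochore mRNAs CENPE (37.9 and 59.2 CPM against 13.4 and 10.6 CPM, -2.02, SE 0.35, adjusted p = 0.0051) and CENPF (-1.24, adjusted p = 0.00824) were lower. The block called 11 of the 26 higher and 5 lower, and the omissions called 0, 0, 0 and 1 higher and 2, 1, 1 and 1 lower. CENPE kept its call under every omission, CENPF without cytoplasmic replicate 1, AURKB without polysomal replicate 2, and CCNB2 under none.

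The genes with the largest rises among those named by size were of mixed function. PQBP1, a splicing-associated protein, was at 45.2 and 57.3 CPM against 226 and 223 CPM (log2 change 2.13, SE 0.28, adjusted p = 0.00327), the ubiquitin ligase gene NOSIP at 67.1 and 64.2 CPM against 277 and 263 CPM (2.04, SE 0.30, adjusted p = 0.00349), and the nuclease subunit gene SLX1A, which has a near-identical copy, at 39.3 and 32.5 CPM against 143 and 166 CPM (2.10). Their 3 calls held under every omission. The linker histone HIST1H1C, whose mRNA belongs to the replication-dependent class without a poly(A) tail, was at 42.3 and 39.9 CPM against 129 and 148 CPM (1.75, SE 0.26, adjusted p = 0.00358; held), yet of 57 such histone genes only this one was called higher and HIST1H2AG lower (-1.39). LENG1 (1.76 and 2.74 CPM against 16.5 and 19.8 CPM, 3.01, adjusted p = 0.027) had a larger change but lost its call under every omission. IFI30 was at 21.5 and 12.9 CPM against 45 and 164 CPM (2.60, adjusted p = 0.0222), with polysomal libraries far apart, and kept its call only without polysomal replicate 1.

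Splicing regulators were called in both directions. Of 30 SR proteins, CLK kinases and speckle proteins 6 were higher and 4 lower (median 0.19, and -0.16 with scaling by total counts). SRSF7 (164 and 159 CPM against 547 and 444 CPM, log2 change 1.62, adjusted p = 0.00794) and SRSF3 (1.02, adjusted p = 0.0103) were higher. PNISR, a speckle protein, was at 150 and 191 CPM against 48.7 and 46.4 CPM (-1.84, SE 0.28, adjusted p = 0.0036; held under every omission), and SRRM2 (-0.95), DDX17 (-0.89) and SON (-0.73) were lower. The omissions gave 0, 0, 0 and 4 higher and 1, 1, 1 and 2 lower, and the block 10 higher.

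Of the lists examined the zinc finger mRNAs held the most genes called lower. Most ZNF genes encode DNA-binding repressors, many in clusters on chromosome 19. Of 477 tested, 105 were lower (22%, against 5.2% of all genes) and 17 higher (3.56%, against 6.63%), with a median of -0.67. With the block 151 were lower and 29 higher. Without genes whose exons overlap another gene, 31 of 237 were lower and 11 higher (median -0.57), against 489 lower and 779 higher of 15125. ZNF493 was at 27.7 and 43.2 CPM against 4.55 and 5.52 CPM (log2 change -2.81, SE 0.37, adjusted p = 0.00327), and ZNF117 at 24.1 and 36.2 CPM against 5.55 and 4.97 CPM (-2.52, SE 0.36, adjusted p = 0.00349). Both calls held under every omission and both genes were lower in H69 sheIF6 (-2.26 and -2.23) and in H69M (-2.62 and -3.14). Members with GC-rich transcripts differed: ZNF428 was at 48.1 and 49.8 CPM against 102 and 130 CPM (1.25, adjusted p = 0.00631; lost without either cytoplasmic library), and ZNF784 (1.48) and ZNF579 (1.28) were higher. The omissions gave 32, 31, 31 and 40 lower and 0, 1, 2 and 6 higher.

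The ZNF changes went with transcript GC content. In the quintile of coding genes with the lowest GC the 165 ZNF genes had a median of -1.10 and 43.0% were lower, against -0.57 and 17.2% of the other genes. In quintiles 2 and 3 the medians were -0.70 and -0.12 for ZNF genes and -0.19 and 0.09 for the others. In quintile 4 they were 0.19 and 0.35, and in that with the highest GC 0.57 and 0.45, where 13 of 58 ZNF genes were higher and none lower. These are descriptions of 1 set of libraries, with no test.

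Selenoprotein mRNAs carry a UGA codon that is read as selenocysteine instead of stop, with the help of an element downstream of the reading frame. Of 15 such mRNAs tested 2 were called higher and 3 lower (median -0.32), and the block called 6 lower. The windows below are shown because the higher and the lower members differ in where this codon lies. They hold up to 12 coding bases on each side of the TGA, in capitals, from GENCODE v29 transcripts (GRCh38), and coordinates are those of the codon.
SEPW1, lower, codon 13 of 88 (chr19:47780732-47780734, plus strand): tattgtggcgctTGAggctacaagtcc
SELT, lower, codon 49 of 196 (chr3:150622392-150622394, plus strand): atttgtgtttccTGAggttataggcgg
SEP15, lower, codon 96 of 166 (chr1:86880690-86880692, minus strand): gaagtttgtggaTGAaaattgggaagg
TXNRD2, higher, codon 523 of 525 (chr22:19877111-19877113, minus strand): gtgacaggctgcTGAgggtaa
VIMP, higher, codon 188 of 190 (chr15:101272777-101272779, minus strand): tcatctggcggaTGAggctaa

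The 2 members called higher have 1 codon between the UGA and the stop, and the 3 called lower have 69 to 146. TXNRD2, a mitochondrial thioredoxin reductase, was at 12.1 and 17.3 CPM against 37.2 and 48.6 CPM (log2 change 1.55, SE 0.30, adjusted p = 0.00718), and VIMP, an endoplasmic reticulum membrane protein also known as selenoprotein S, at 56.5 and 58.5 CPM against 112 and 132 CPM (1.08, SE 0.19, adjusted p = 0.00481). Both lost the call without cytoplasmic replicate 1 alone. SEPW1, a small redox protein, was at 43.3 and 41.9 CPM against 7.92 and 15.9 CPM (-1.84, SE 0.47, adjusted p = 0.0241). SELT was at 33.9 and 31.3 CPM against 13.1 and 15.2 CPM (-1.20, SE 0.21, adjusted p = 0.00523) and SEP15 at 96.0 and 92.9 CPM against 41.4 and 45.2 CPM (-1.13, SE 0.20, adjusted p = 0.0051). SELT and SEP15 lost the call without replicate 1 of either fraction, and SEPW1 kept it only without polysomal replicate 2. The omissions gave 0, 2, 2 and 2 higher and 0, 2, 0 and 5 lower.

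The peroxidases GPX4 (124 codons after the UGA, 143 and 135 CPM against 40.8 and 79.1 CPM, log2 change -1.21, adjusted p = 0.0637; blocked 0.0344) and GPX1 (154 codons, -0.94, adjusted p = 0.0984; blocked 0.0469) and C11orf31 (78 codons, -0.88, adjusted p = 0.118; blocked 0.0318) passed with the block and not in the unblocked fit of the 16 libraries. Without the block 4 of the 15 were lower by DESeq2, by limma-voom and with at least 50 counts, and 6 with scaling by total counts. TXNRD1, with 1 codon after the UGA, had 0.38 and SELO, with 2, had 0.05. EPT1, with 10, had -0.56 and MSRB1, with 21, had 0.00. SEPHS2 and SEPN1, with 388 and 463, had -0.20 and -0.32. None of these 6 was called, and SEPP1 had no count in the 4 libraries. In H69 sheIF6 SEP15, SELT and both higher members were called in the same directions, and in H69M SEP15 (-1.50) and SELT (-1.43) were called lower while TXNRD2 (0.64) and VIMP (0.22) were not called.

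**Figure D4:**
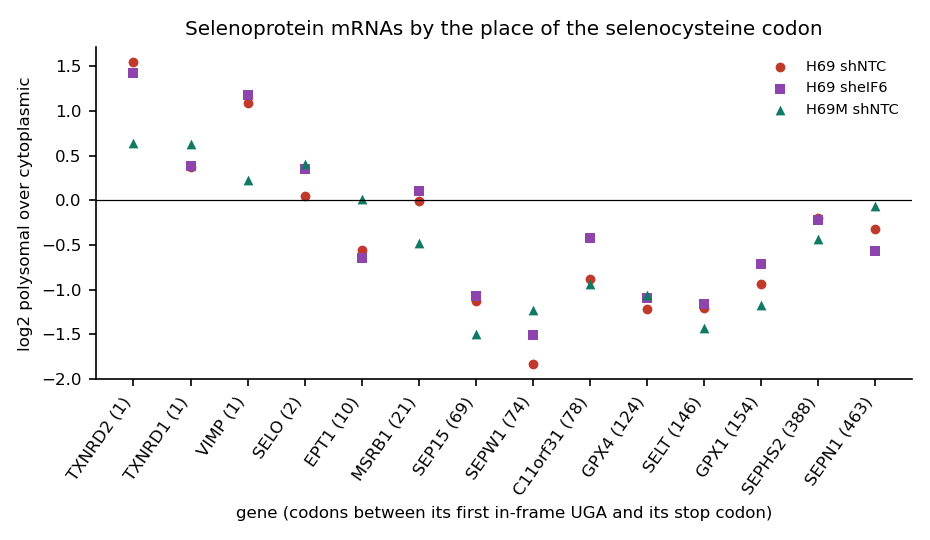
Log2 polysomal over cytoplasmic level of 14 selenoprotein mRNAs, ordered by the number of codons between the first in-frame UGA and the stop codon (in brackets), in H69 shNTC, H69 sheIF6 and H69M shNTC. The 4 genes with 1 or 2 codons after the UGA lie at or above 0, and the 6 with 69 to 154 lie below 0 in all 3 cell groups.

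Of 16 messages known for control of translation by upstream reading frames 2 were lower and none higher (median -0.09). MDM2, the ligase of p53, was at 76.2 and 84.6 CPM against 36.7 and 38.7 CPM (log2 change -1.09, SE 0.24, adjusted p = 0.0121), and AMD1, a polyamine enzyme, at 72.5 and 65.9 CPM against 34.3 and 30.9 CPM (-1.09, SE 0.22, adjusted p = 0.00793). MDM2 lost its call under every omission and AMD1 kept it without cytoplasmic replicate 2. ATF4, the stress response factor, was at 249 and 216 CPM against 145 and 224 CPM, with overlapping groups (-0.33, adjusted p = 0.782). None of 17 amino acid synthesis and transport mRNAs was called by edgeR in the fit of all 16 libraries (median 0.95). At an unadjusted p under 0.05, 5 were higher and 1 lower, against 2931 and 3353 of all 23100 genes. The number called depends on the fit. With the H69 libraries alone 12 were higher and 1 lower, and 8 were higher with the H69 shNTC libraries alone. The block gave 5 higher, the H69 libraries with the block 14 higher and 1 lower, and DESeq2 4 higher. Scaling by total counts gave 2 lower and none higher. Calls over all genes moved with the fit too. The H69 libraries alone gave 2579 higher and 1739 lower of 20585 genes. The H69 shNTC libraries alone gave 1598 and 892 of 19154, and the H69 libraries with the block 3899 and 3269 of 20585. Of 23100 genes the block gave 2279 and 2081, DESeq2 2338 and 1959, and scaling by total counts 843 and 2371.

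The ferritin mRNAs FTH1 and FTL, whose leaders bind iron regulatory proteins, were at 1014 and 1028 CPM against 207 and 702 CPM (-1.17, adjusted p = 0.211; blocked 0.0451) and at 342 and 267 CPM against 60.5 and 174 CPM (-1.38, adjusted p = 0.132; blocked 0.0503). Polysomal replicate 1 was far below replicate 2 for both. Without it the FTH1 change was -0.54, and without polysomal replicate 2 it was -2.30. ODC1 (0.42, adjusted p = 0.162) and its antizyme OAZ1 (0.02, adjusted p = 1) of polyamine metabolism were not called. XRN1, the cytoplasmic exonuclease, was lower (27.6 and 23.9 CPM against 10.8 and 8.66 CPM, -1.40, adjusted p = 0.0114; lost under every omission). Of 24 immediate early mRNAs 5 were higher and none lower (median 0.22, and -0.15 with scaling by total counts; 1, 0, 1 and 3 under the omissions), with JUNB at 72.3 and 65.2 CPM against 199 and 161 CPM (1.39, adjusted p = 0.0045; lost without cytoplasmic replicate 2).

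For genes of neuroendocrine identity, as over all genes, the number of calls depended on the fit. Of 21 granule genes 1 was higher in the fit of all 16 libraries, 3 with the block, 8 with the H69 libraries alone, 6 with the H69 shNTC libraries alone and 13 with the H69 libraries and the block, and none was lower. Of 19 lineage factors these fits called 1, 3, 2, 2 and 7 higher and 1, 1, 2, 1 and 3 lower. Over all genes they called 1531, 2279, 2579, 1598 and 3899 higher and 1201, 2081, 1739, 892 and 3269 lower. They tested 23100, 23100, 20585, 19154 and 20585 genes. In the fit of all 16 libraries 4.76% of granule genes and 5.26% of lineage factors were higher, against 6.63% of all genes. INSM1, a lineage factor, was at 1324 and 857 CPM against 2216 and 1571 CPM (0.80, adjusted p = 0.812; blocked 0.234), so number 1 exceeded number 2 in both fractions. CHGA, a granule protein, was at 122 and 170 CPM against 495 and 514 CPM and passed with the block and in the fits of fewer libraries (1.79, adjusted p = 0.383; blocked 0.00673). SYP, a synaptic vesicle protein, was the granule gene called in the unblocked fit of all 16 libraries (99.2 and 108 CPM against 263 and 287 CPM, 1.41, adjusted p = 0.0318; lost under every omission). In that fit the lineage factor BEX1 was higher (0.97) and PROX1 lower (72.5 and 93.4 CPM against 34.9 and 30.9 CPM, -1.33, adjusted p = 0.0331), both lost under every omission. The low-level homeobox gene LHX4 was at 2.95 and 4.04 CPM against 0.342 and 0.396 CPM (-3.23, SE 0.47, adjusted p = 0.00349; held under every omission).

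Over 15540 coding genes the change went with transcript GC content and length. Spearman's rho was 0.42 for GC, -0.32 for transcript length, -0.26 for the length of the 3′ untranslated region, -0.17 for coding length and -0.04 for that of the 5′ untranslated region. These correlations are across genes of the same libraries and carry no test. In the quintile with the lowest GC (median 39.0%) the median change was -0.60, and 59 genes were higher and 576 lower. In the quintile with the highest GC (median 62.7%) the median was 0.45, and 435 were higher and 9 lower. Coding length showed a peak instead of a trend: the second quintile, from 762 to 1176 bases, had the highest median (0.24, 508 higher, 115 lower) and the quintile above 2511 bases the lowest (-0.29, 72 higher, 268 lower). With the longest 3′ untranslated regions 99 were higher and 383 lower (median -0.37). Among genes in the longest quintile for both coding sequence and 3′ untranslated region 2 were higher and 97 lower of 740. GC content also affects how libraries are amplified and sequenced, and its part in the result was not tested.

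**Figure D5:**
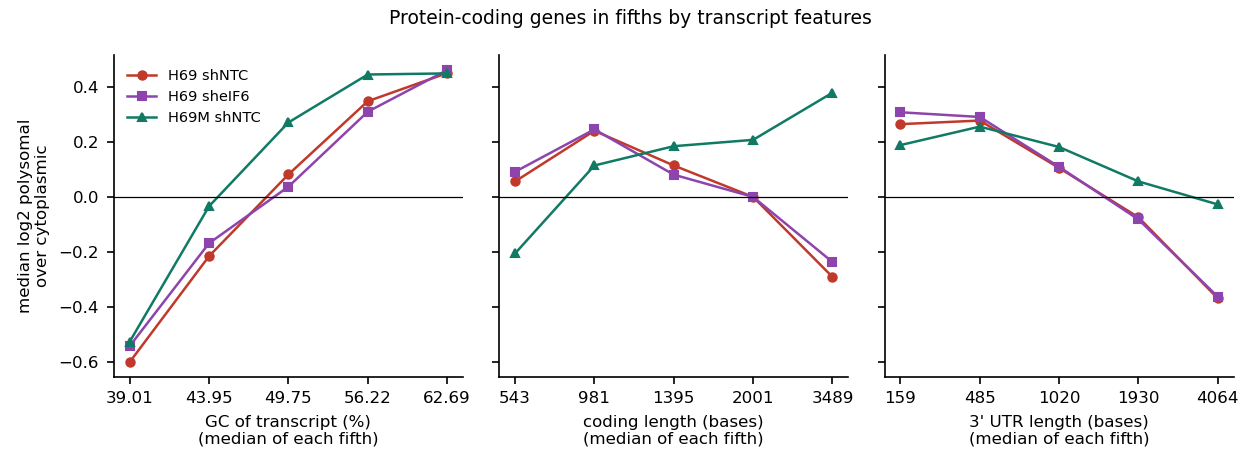
Median log2 polysomal over cytoplasmic level in quintiles of 15540 protein-coding genes by transcript GC, coding length and 3′ untranslated region length, for H69 shNTC, H69 sheIF6 and H69M shNTC. The 2 groups of H69 nearly coincide; by coding length H69 falls from 0.24 in the second quintile to -0.29 in the longest, while H69M rises to 0.38.

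The H69 sheIF6 libraries, which share no library with the control contrast, were compared with it gene by gene. The 2 contrasts are not independent. Both came from the same fit, and same-numbered libraries of the 2 groups deviated together (correlation 0.504 for polysomal and 0.363 for cytoplasmic RNA). Of the 2732 genes called in shNTC 2701 had a change of the same sign there (98.9%), against 82.4% of all genes. Calls in the same direction in both numbered 1930, which is 70.6% of the calls in shNTC and 86.5% of the 2232 calls in sheIF6 (9.66% of genes; 5.66% higher and 4% lower). MRPL28 was at 2.00 and 1.97, EIF3G at 1.74 and 1.62, OIP5-AS1 at -2.41 and -2.15 and MT-RNR2 at -3.73 and -3.39 in shNTC and sheIF6. A test of the difference between the 2 contrasts called no gene in edgeR, with 383 genes (1.66%) at an unadjusted p under 0.05, and none with the block. ZNF320 was the 1 gene called in opposite directions, at -4.76 in shNTC and 2.44 in sheIF6. It overlaps 3 other genes on its own strand.

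In H69M shNTC 2554 of the 2732 genes had a change of the same sign (93.5%, against 66.6% of all genes), and 550 were called in the same direction, 20.1% of the calls in H69 and 50.7% of the 1085 calls in H69M (4.7% of genes; 2.16% higher and 2.54% lower). The median there was -1.93 for mitochondrial mRNAs and -0.82 for snoRNA hosts, against 0 for all genes. Lists with high medians in H69 varied in H69M. Glycolysis had 0.87 and the proteasome 0.48 there. Nuclear oxidative phosphorylation had -0.22 (2 higher, 3 lower), mitochondrial ribosomal proteins -0.02 (1 higher, 3 lower) and initiation factors 0.02 (4 higher, 2 lower). The test of the difference between the lines called no gene, with 2127 genes (9.21%) at an unadjusted p under 0.05. With the block it called 9 (0.039% of genes), 0.0303% lower and 0.00866% higher in H69. By reading frame, the longest quintile of coding genes had a median of -0.29 in H69 and 0.38 in H69M, and rho for coding length was -0.17 and 0.21. MDN1, a ribosome assembly ATPase with 16791 coding bases, was at 169 and 185 CPM against 97.1 and 100 CPM in H69 (log2 change -0.84, adjusted p = 0.037) and higher in H69M (1.00, adjusted p = 0.0336). EPG5 (7740 bases; -0.94 and 1.07) and RTTN (6681 bases; -0.77 and 0.92) were also called in opposite directions, and TCEAL4 (648 bases) was higher in H69 (25.5 and 35.5 CPM against 70.9 and 70.2 CPM, 1.21) and lower in H69M (-0.92). These 4 genes were named for this pattern after their values had been seen.

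Some of the largest values belong to genes that overlap others. BIVM-ERCC5, a readthrough name, had 2825 and 2531 counts in cytoplasmic and 0 and 1 in polysomal RNA, while ERCC5, one of the genes it spans, had 309 and 429 against 843 and 1007 counts and BIVM 2912 and 3014 against 1006 and 1345. In the other polysomal libraries BIVM-ERCC5 had 1022 and 1642 counts in H69 sheIF6, 0 and 2 in H69M shNTC and 0 and 1550 in H69M sheIF6, so it was near 0 in 5 of the 8, and in those 5 ERCC5 was at 843 to 1235 counts against 119 to 270 in the other 3. Whether all libraries were counted with the same settings is not given in the sources used here and was not tested, and no fold is given. Between the H69 shNTC and H69 sheIF6 polysomal libraries 7 of the 23100 genes were over 10 times lower and 5 over 10 times higher in shNTC, over all pairs of libraries and with at least 50 counts in each higher one. That count was chosen after seeing the data. Without genes whose exons overlap another gene, 779 were higher and 489 lower of 15125 tested. Of genes named LINC that fit held 33 with none called, against 4 lower of 61 in the main fit. Of genes named as antisense it held 31 with 1 lower, against 12 lower of 129. KRT17, a keratin gene of the H69M state, was called higher on levels of 0 and 0 against 0.0526 and 0.099 CPM, which are 2 and 4 counts, so no fold is given (adjusted p = 0.0433; blocked 0.0686).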

How the data were processed

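RNA-seq libraries (NEBNext Ultra kit, per the labels' protocols) of 2 fractions were compared. The deposited values are raw counts per gene; the submitters' processing notes name STAR, HTSeq and GRCh38 (hg38), with versions, strand setting and selection of RNA not given in the sources used here. All 16 libraries, as 8 groups of 2, were fitted with edgeR 4.0.16 in R 4.3.3 (TMM scaling, filterByExpr with a minimum count of 10, robust quasi-likelihood test, 8 residual degrees of freedom). The Benjamini-Hochberg adjusted p-value was taken over 23100 genes, with a limit of 0.05. Standard errors (SE) were obtained from each gene's F statistic as |log2 change| over its root. CPM uses TMM-scaled library sizes. The test was checked on simulated counts.

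Named genes were, per direction, up to 10 coding and 8 noncoding genes with the largest change among called, non-overlapping genes with a mean raw count of at least 100, the 6 most abundant, up to 4 called members of each list and members called against its median, and a panel. RPL3, RPL4, RPL39, RPS29, RPS20, RPS2, RPLP0 and RPS18, the selenoproteins not called, TUG1, UBE2C, H19 and TINCR were added after their values were seen. Of the genes this rule names, 3 are not reported here. Members and lists were chosen with earlier results of these data known.

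Same-numbered libraries of H69 groups deviated together (correlations from 0.286 to 0.504 over 6 pairs of groups), so blocked values are given where they change a call; the labels do not say what the number marks. Alternatives used DESeq2 1.42.0 and limma 3.58.1 (voom), other scalings and filters, fewer libraries, and, chosen after seeing the data, the removal of overlapping genes. GENCODE v29 matched 29526 names directly and 863 by RefSeq synonym, and 26443 of 56832 were not matched to 1 gene.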

Additional observations from a re-analysis of the deposited data

Results flagged for a closer look

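The effect of fraction differed between H69 and H69M shNTC for 9 genes (0.039% of those tested) by an edgeR test of the difference with the replicate number as a block, and for none without the block. The log2 difference, H69 minus H69M, was -2.388 for CADPS, -2.623 for FABP7, -4.433 for FBN1, -2.714 for FBN2, -2.119 for PRPF8, -2.868 for SCGN and -2.195 for TRRAP. It was 2.133 for TCEAL4 and 10.52 for RP5-1189D6.2, a clone name without an annotated class. FBN1 was below 1.3 CPM in the 4 H69 shNTC libraries.

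EPG5 (-2.011), MDN1 (-1.845) and RTTN (-1.696) were called lower on polysomes in H69 and higher in H69M. Their differences did not pass the test with the block (adjusted p from 0.0746 to 0.0785). ZNF320 was called in opposite directions in H69 shNTC and H69 sheIF6, with a difference of -7.2 that did not pass (adjusted p = 0.385). No group had the 4 libraries needed to look for a single library far from the others.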

How the results depend on the processing

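With 2 libraries a group, single libraries set the number of calls: leaving out 1 at a time gave 213 to 947 genes higher and 220 to 583 lower, against 1531 and 1201. Of 171 named calls 43 and 52 were kept without cytoplasmic replicates 1 and 2, and 56 and 115 without polysomal replicates 1 and 2. Scaling by total counts gave 843 higher and 2371 lower, and DESeq2 gave 2338 and 1959. The H69 libraries alone gave 2579 higher. The replicate block gave 2081 lower, and with the H69 libraries alone 3899 higher and 3269 lower. Testing against a log2 change of 1 gave 0 and 0. Removing genes whose exons overlap another, chosen after seeing the data, gave 779 and 489. Here the cause was not tested, except that fewer libraries or genes enter some fits.

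No value of opposite sign passed its test (adjusted p from 0.512 to 1). TPT1 (-0.02) was at 0.0263 with RLE scaling and DESeq2, 0.0381 with the H69 libraries alone, 0.0314 with these and the block, 0.032 with H69 shNTC alone, 0.00205 without genes high in H69M, 0.000801 without cytoplasmic replicate 2, and ranged from -0.184 to 0.135 over the 4 omissions. OAZ1 (0.02) was at -0.312 with total scaling, -0.034 with at least 50 counts, -0.00668 with the block, -0.135 without cytoplasmic replicate 2, and from -0.241 to 0.241 over the omissions.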
